A study of Mus musculus with 16 samples.

Results

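The peptide genes Vip, Adcyap1, Cck, Tac1 and Tac2 and the receptor genes Vipr1, Adcyap1r1, Cckbr, Tacr1 and Tacr3 were followed in mouse hippocampal cultures under synaptic stimulation and after reduction of the DNA methyltransferase Dnmt3a1. These 10 genes were taken by name from a table of 55385 genes. Each of the 10 was found under its Ensembl identifier, and each passed the filter on low counts, which 17222 genes passed.

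The cultures were prepared from the hippocampi of newborn C57Bl/6N mice and infected on day 4 in vitro with recombinant adeno-associated virus. Every group carried virus: the vector expressed a short hairpin RNA (shRNA) from the U6 promoter and GFP from the chicken β-actin promoter, and was either the Control-shRNA or the 1 hairpin against Dnmt3a1 (Dnmt3a1-shRNA2, labelled shDnmt3a1). The cultures were harvested at baseline, or after 4 h with 50 µM bicuculline, a blocker of GABA-A receptors that disinhibits the network and drives bursts of action potentials. Poly(A) RNA was sequenced from 16 libraries, 4 in each of the 4 groups, so the comparisons were the bicuculline response under each hairpin, the knockdown effect with and without bicuculline, and the difference between the responses.

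VIP and PACAP, the product of Adcyap1, belong to the secretin family of peptides. PACAP acts on PAC1 (Adcyap1r1), VPAC1 (Vipr1) is shared by both peptides, and these receptors couple mainly to Gs and raise cyclic AMP. Cholecystokinin, made from Cck, acts in the brain mostly on the CCK-B receptor (Cckbr). Substance P and neurokinin A, both made from Tac1, act on NK1 (Tacr1) and NK2 receptors, and neurokinin B, made from Tac2, acts on NK3 (Tacr3); CCK-B and the tachykinin receptors couple mainly to Gq and phospholipase C. In the hippocampus, Vip and much of Cck mark classes of GABAergic interneurons, while pyramidal cells also make cholecystokinin.

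Library totals ran from 28912697 to 29586355 estimated counts. Levels are given below as CPM, read counts scaled to a common library size after TMM normalisation, with the SD over the 4 libraries of a group (n = 4 throughout). Dnmt3a, the targeted gene, stood at 312 ± 13.8 CPM in Control-shRNA and 44.5 ± 3.66 CPM in Dnmt3a1-shRNA2 cultures at baseline, and at 327 ± 11.8 and 45.3 ± 1.72 CPM with bicuculline. Summed over 8 genes common to neurons, markers reached 6632 to 9021 CPM in every library, 9 astrocyte markers 714 to 1138 CPM and 8 microglial markers 2.90 to 6.03 CPM, so the cultures held neurons and astrocytes with little microglial RNA. In such mixed samples fewer cells of a type and less RNA per cell cannot be told apart. The tests were edgeR's quasi-likelihood tests with Benjamini-Hochberg adjustment over all 17222 genes, and a gene was called changed at an adjusted p under 0.05 with an absolute log2 fold change over 0.5. These p-values measure the spread between these libraries.

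The promoter sequences are shown of the 7 members that were called in at least 1 comparison below. They were taken from RefSeq on GRCm38.p6 as 150 bases on the strand of the gene, 130 before the annotated start and 20 from it on: Vip at chr10:5639088-5639237 (+), Adcyap1 at chr17:93198887-93199036 (+), Tac1 at chr6:7554931-7555080 (+), Vipr1 at chr9:121642586-121642735 (+), Cckbr at chr7:105425601-105425750 (+), Tacr1 at chr6:82402345-82402494 (+) and Tacr3 at chr3:134828877-134829026 (+). Capitals mark TGACG, the core of the cyclic AMP response element to which CREB proteins bind, or CGTCA where it reads on the other strand.
Vip: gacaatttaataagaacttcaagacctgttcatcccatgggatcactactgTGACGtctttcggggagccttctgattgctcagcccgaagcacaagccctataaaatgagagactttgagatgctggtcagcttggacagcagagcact
Adcyap1: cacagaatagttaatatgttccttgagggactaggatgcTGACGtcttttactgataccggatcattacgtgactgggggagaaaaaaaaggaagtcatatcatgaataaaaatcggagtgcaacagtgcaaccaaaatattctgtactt
Tac1: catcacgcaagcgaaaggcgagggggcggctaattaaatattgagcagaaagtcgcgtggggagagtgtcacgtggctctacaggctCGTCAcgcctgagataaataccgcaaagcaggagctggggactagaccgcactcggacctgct
Vipr1: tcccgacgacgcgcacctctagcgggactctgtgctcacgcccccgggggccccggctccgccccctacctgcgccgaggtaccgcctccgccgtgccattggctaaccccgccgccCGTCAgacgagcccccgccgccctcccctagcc
Cckbr: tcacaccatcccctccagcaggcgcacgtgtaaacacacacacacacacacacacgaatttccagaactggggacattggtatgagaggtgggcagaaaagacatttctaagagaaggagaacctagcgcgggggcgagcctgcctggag
Tacr1: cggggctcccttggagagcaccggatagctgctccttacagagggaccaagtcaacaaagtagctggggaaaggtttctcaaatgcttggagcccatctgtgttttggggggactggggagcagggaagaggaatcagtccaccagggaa
Tacr3: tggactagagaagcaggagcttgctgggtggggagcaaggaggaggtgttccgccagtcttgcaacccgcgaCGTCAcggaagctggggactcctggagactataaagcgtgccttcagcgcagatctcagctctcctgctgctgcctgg
Within 300 bases around the start (250 before it), TGACG was present on either strand in 7 of the 10 members, and in 20.8% of all 32851 mouse promoters of that length, or 23.0% of the 27025 genes. In Vip it began 79 bases before the start and in Adcyap1 91 bases before the start shown. Adcyap1 has a further annotated start at 93199168, and from there the same TGACG began 242 bases upstream. The longest stretch that the promoter of Vip shared with that of the Adcyap1 start shown was tgacgtcttt, 10 bases that 23 of the 32851 promoters held. Tac1 carried TGACG a further time and Tacr1 once outside the stretch shown. Cck carried it too, though it was called in no comparison, whereas the windows of Cckbr, which was called, and of Adcyap1r1 and Tac2 held none. The full palindrome TGACGTCA, which contains TGACG and occurred in 1.79% of promoters, was in none of the 10 windows, nor were TGANTCA, the AP-1 motif (7.81%), or GCGTGGGCG, the Egr motif (0.612%). CpG dinucleotides, the sites that DNA methyltransferases act on, numbered 4 in the 300 bases of Vip, 7 in Adcyap1, 10 in Cck, 22 in Tac1, 3 in Tac2, 35 in Vipr1, 17 in Adcyap1r1, 15 in Cckbr, 7 in Tacr1 and 8 in Tacr3, against a median of 7 over all promoters. The window of the further Adcyap1 start held 10 CpG, and the 7 belong to the start shown. A match is a description of the letters only. Methylation was not measured in these libraries.

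Per transcript length (TPM), Cck was the most abundant of the 10 in every group. At baseline in Control-shRNA cultures it reached 375 ± 26.6 TPM, with its lowest library at 357 TPM, above every library of the other members. Adcyap1r1 followed with 66.9 ± 10.9 TPM and Tac1 with 56.8 ± 4.64 TPM, and the ranges of these neighbours overlapped. Then came Adcyap1 (17.6 ± 12.2 TPM), Tacr3 (17.3 ± 0.936), Vip (14.0 ± 2.20), Tac2 (9.45 ± 2.26) and Cckbr (9.12 ± 2.87), each overlapping the next. Vipr1 (5.23 ± 0.840 TPM) and Tacr1 (1.83 ± 0.365 TPM) lay lowest, apart from each other and from the rest. With bicuculline the order changed in the middle: Tac1 (92.3 ± 15.2 TPM) overlapped Adcyap1 (54.6 ± 20.2), which overlapped Adcyap1r1 (53.9 ± 13.1), and Tacr3 (47.2 ± 14.3) overlapped Adcyap1r1 but no longer Vip (19.6 ± 1.85).

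**Figure D1:**
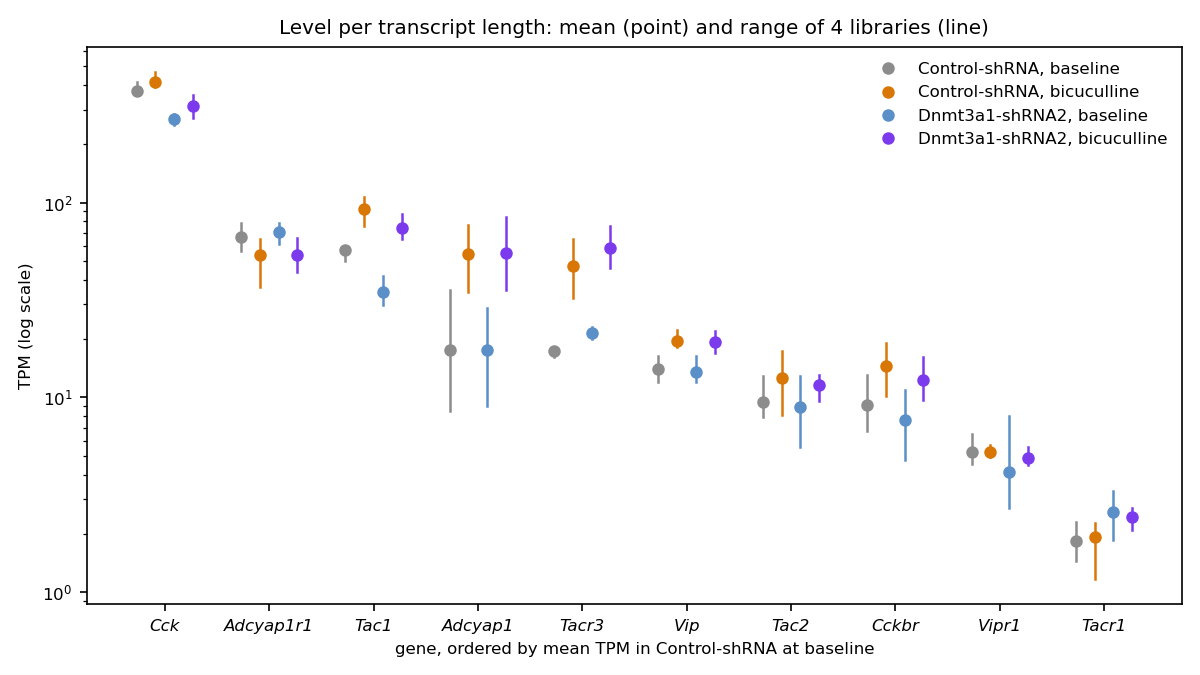
Level of each member per transcript length in the 4 groups (TPM, log axis), with the mean and the range of 4 libraries. Cck lies highest in every group and Tacr1 lowest, and Adcyap1 and Tacr3 move up to the level of Adcyap1r1 with bicuculline.

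Bicuculline raised 5 of the 10 members in Control-shRNA cultures (Adcyap1, Tacr3, Tac1, Cckbr and Vip) and lowered none. Over all genes the same call was met by 21.9%, of which 10.8% were higher and 11.1% lower. In Dnmt3a1-shRNA2 cultures these 5 genes and Vipr1 rose and none fell, against 25.8% of all genes called, 12.6% higher and 13.2% lower. The median log2 fold change in Control-shRNA cultures was 0.69 over the 5 peptide genes and 0.40 over the 5 receptor genes, beside 0.01 over all genes tested. In Dnmt3a1-shRNA2 cultures these medians were 0.73 and 0.73, beside -0.01. Among the 10 members, the baseline and bicuculline libraries did not overlap for 5 under the Control-shRNA and for 7 under Dnmt3a1-shRNA2, where 39.7% and 40.4% of all genes did not overlap.

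**Figure D2:**
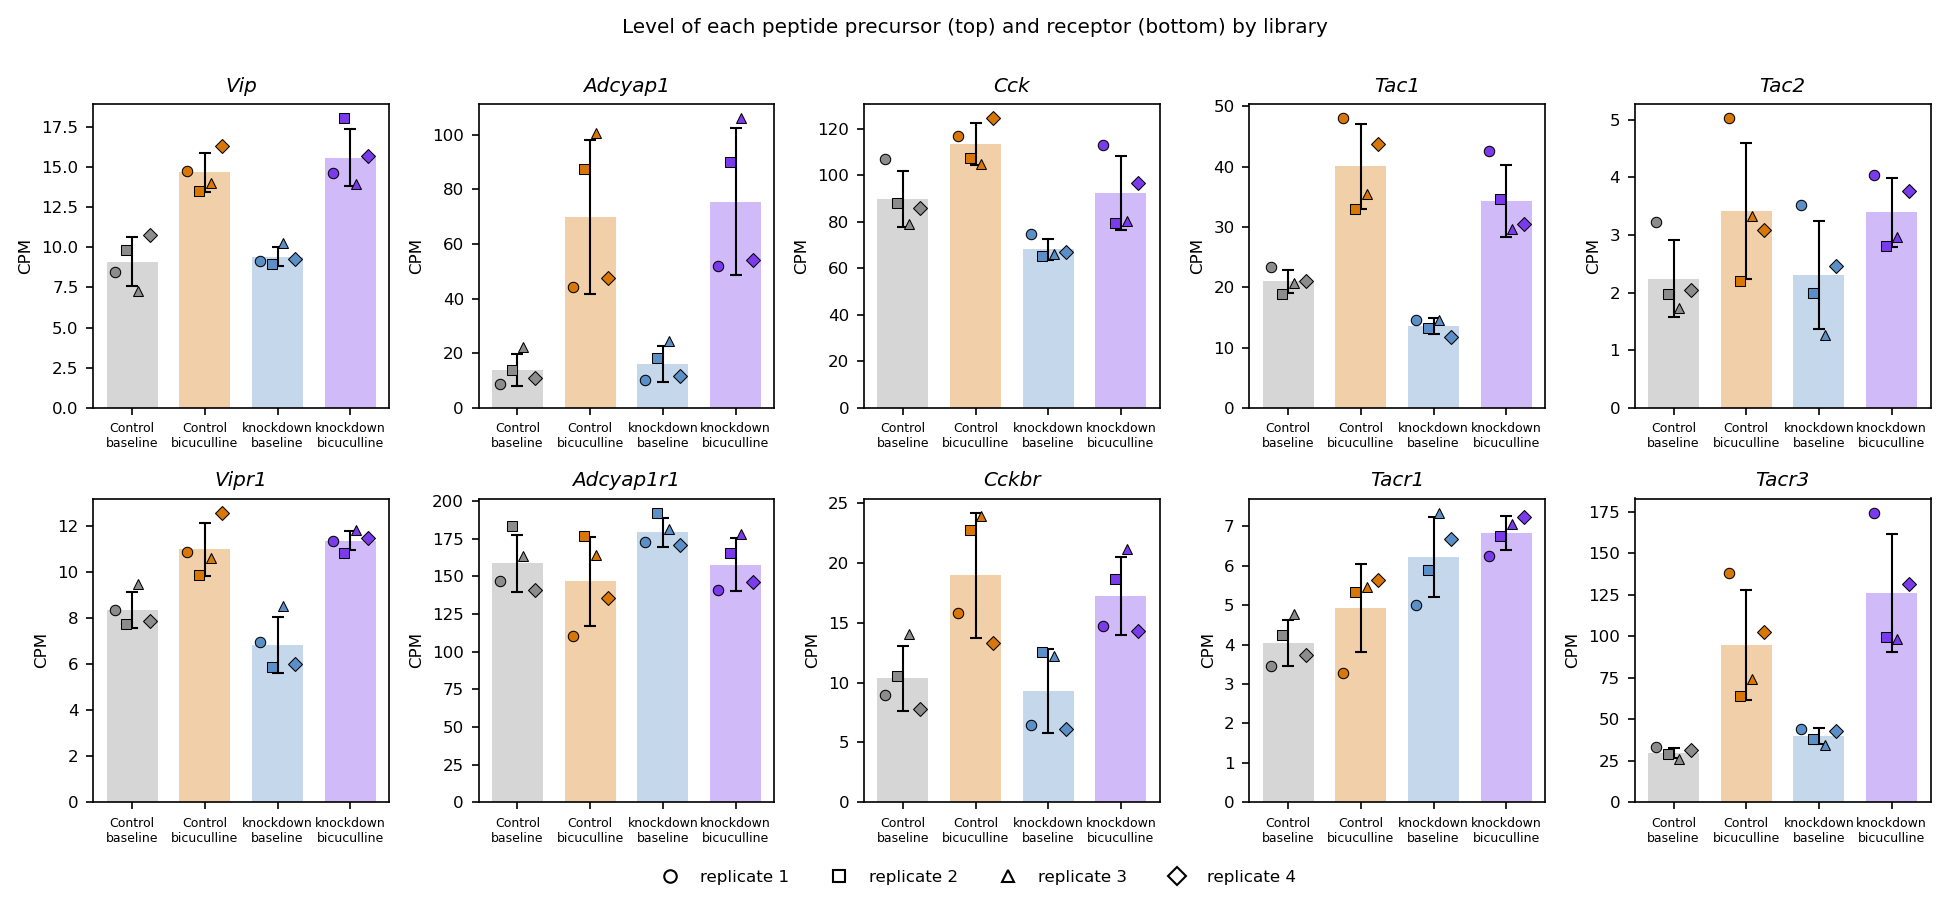
CPM of each member in all 16 libraries, on a linear axis from 0. Bars are means and error bars SDs of 4 libraries, and marker shapes give the replicate number; Adcyap1 and Tacr3 show the widest gaps between baseline and bicuculline.

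Adcyap1 (ENSMUSG00000024256, chr17:93199017-93206537), which encodes PACAP, had the largest response of the 10. At baseline, replicates 1 to 4 of the Control-shRNA held 8.56, 13.7, 22.3 and 10.9 CPM, and with bicuculline 44.3, 87.3, 101 and 47.4 CPM. All 4 stimulated libraries lay above all 4 baseline libraries, although the spread within a group was wide. The log2 fold change was 2.33 (SE 0.36, adjusted p = 4.25e-05), a 5.03-fold rise with a 95% interval of 1.58 to 3.08 on the log2 scale. Knockdown cultures went from 10.2, 18.2, 24.6 and 11.7 CPM to 51.7, 90.1, 106 and 54.3 CPM, again without overlap. There the rise was 4.66-fold (log2 fold change 2.22, SE 0.35, adjusted p = 5.15e-05). Taken within replicate numbers, the ratio of stimulated to baseline CPM was narrower than the levels: 4.36 to 6.36 under the Control-shRNA and 4.31 to 5.06 under Dnmt3a1-shRNA2.

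Tac1 (ENSMUSG00000061762, chr6:7554879-7565834), the precursor of substance P and neurokinin A, rose 1.91-fold. Its Control-shRNA libraries held 23.4, 18.8, 20.7 and 21 CPM at baseline and 48.0, 32.9, 35.5 and 43.8 CPM with bicuculline (log2 fold change 0.93, SE 0.13, adjusted p = 1.35e-05). The lowest stimulated library stood above the highest at baseline. Under Dnmt3a1-shRNA2 it went from 14.6, 13.3, 14.6 and 11.8 CPM to 42.6, 34.5, 29.7 and 30.4 CPM. This was a 2.53-fold rise from a lower start (log2 fold change 1.34, SE 0.13, adjusted p = 2.21e-07), to levels that overlapped those of stimulated Control-shRNA cultures.

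Vip (ENSMUSG00000019772, chr10:5639218-5647617) rose less. Its Control-shRNA libraries held 8.49, 9.82, 7.30 and 10.8 CPM at baseline and 14.8, 13.5, 14.0 and 16.3 CPM with bicuculline, 2 sets that did not overlap (1.61-fold, log2 fold change 0.69, SE 0.11, adjusted p = 8.68e-05). Knockdown cultures held 9.14, 8.96, 10.3 and 9.29 CPM at baseline and 14.6, 18, 14.0 and 15.7 CPM with bicuculline (1.65-fold, adjusted p = 3.95e-05). On log2(TPM + 1) the rise was 0.47 and 0.48, under the fold threshold.

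Cck (ENSMUSG00000032532, chr9:121489824-121495694) passed the p threshold but not the fold threshold. Control-shRNA libraries held 107, 88.0, 78.9 and 85.8 CPM at baseline and 117, 107, 105 and 124 CPM with bicuculline, and replicate 1 at baseline lay among the stimulated libraries. The log2 fold change was 0.33 (SE 0.11, adjusted p = 0.0188). Under Dnmt3a1-shRNA2 it was 0.44 (adjusted p = 0.00298), with 75.0, 65.3, 66.0 and 66.9 CPM at baseline and 113, 79.7, 80.3 and 96.9 CPM with bicuculline, which did not overlap.

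Tac2 (ENSMUSG00000025400, chr10:127724478-127731768), the neurokinin B precursor, was low in every library. Control-shRNA cultures held 3.23, 1.98, 1.73 and 2.04 CPM at baseline and 5.03, 2.20, 3.33 and 3.09 CPM with bicuculline, and the groups overlapped. The log2 fold change of 0.60 (SE 0.28) did not pass (adjusted p = 0.10). With the replicate number as a block it did (adjusted p = 0.0062), as it did without replicate 1 at baseline (0.83) or without replicate 2 with bicuculline (0.76). Without replicate 1 with bicuculline the value was 0.36 (adjusted p = 0.342). Under Dnmt3a1-shRNA2 the values were 3.51, 1.99, 1.27 and 2.46 CPM and 4.04, 2.81, 2.96 and 3.77 CPM (log2 fold change 0.56, adjusted p = 0.122). Without replicate 1 at baseline this was 0.83 and passed, and without replicate 3 at baseline it was 0.35.

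Among the receptors, Tacr3 (ENSMUSG00000028172, chr3:134829007-134934579), the neurokinin B receptor NK3, responded most. Its Control-shRNA libraries went from 33.2, 28.8, 25.9 and 31.2 CPM to 138, 63.9, 74.1 and 102 CPM, a 3.18-fold rise (log2 fold change 1.67, SE 0.21, adjusted p = 6.02e-06). Knockdown libraries went from 44.4, 37.9, 34.2 and 42.8 CPM to 174, 99.7, 98.4 and 131 CPM, a 3.16-fold rise (adjusted p = 4.37e-06). Neither pair of groups overlapped, and replicate 1 was the highest in all 4 groups.

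Cckbr (ENSMUSG00000030898, chr7:105425731-105470898), the CCK-B receptor, rose 1.83-fold under the Control-shRNA, from 8.95, 10.6, 14.1 and 7.82 CPM to 15.9, 22.8, 24 and 13.3 CPM (log2 fold change 0.87, SE 0.25, adjusted p = 0.00904). The stimulated replicate 4 lay within the baseline range. In knockdown cultures it rose 1.85-fold, from 6.43, 12.5, 12.2 and 6.09 CPM to 14.8, 18.7, 21.2 and 14.3 CPM, without overlap (adjusted p = 0.00775). Tested as log2(TPM + 1) with limma, the changes were 0.60 (adjusted p = 0.0843) and 0.67 (adjusted p = 0.0523), and neither passed.

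Vipr1 (ENSMUSG00000032528, chr9:121642716-121672954), the VPAC1 receptor of VIP and PACAP, stood at 8.33, 7.72, 9.46 and 7.85 CPM at baseline and 10.9, 9.87, 10.6 and 12.6 CPM with bicuculline under the Control-shRNA. These sets did not overlap, but the log2 fold change of 0.40 (adjusted p = 0.00881) was under the fold threshold. It rose 1.66-fold under Dnmt3a1-shRNA2, from 6.96, 5.85, 8.51 and 5.99 CPM to 11.3, 10.8, 11.8 and 11.5 CPM (log2 fold change 0.73, SE 0.11, adjusted p = 4.16e-05). On log2(TPM + 1) the latter was 0.30 (adjusted p = 0.288). Replicate 3 at baseline had 8.03 TPM, where the other libraries of its group had 2.71 to 2.98 TPM. The mean transcript length implied by the counts and TPM of this library was 2440 nucleotides, where the others had 3875 to 4713. The part of this library in the change of 0.30 was not tested.

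Adcyap1r1 (ENSMUSG00000029778, chr6:55451978-55501451), the PAC1 receptor of PACAP, did not pass, with 147, 183, 163 and 141 CPM at baseline and 111, 176, 164 and 136 CPM with bicuculline under the Control-shRNA. The log2 fold change was -0.11, with a 95% interval of -0.37 to 0.14 (adjusted p = 0.497), and in knockdown cultures it was -0.18 (adjusted p = 0.233). Tacr1 (ENSMUSG00000030043, chr6:82402334-82560104), the substance P receptor NK1, did not pass either. Its Control-shRNA libraries held 3.46, 4.23, 4.78 and 3.73 CPM at baseline and 3.28, 5.33, 5.46 and 5.65 CPM with bicuculline (log2 fold change 0.28, adjusted p = 0.179), and under Dnmt3a1-shRNA2 the log2 fold change was 0.13 (adjusted p = 0.524).

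**Figure D3:**
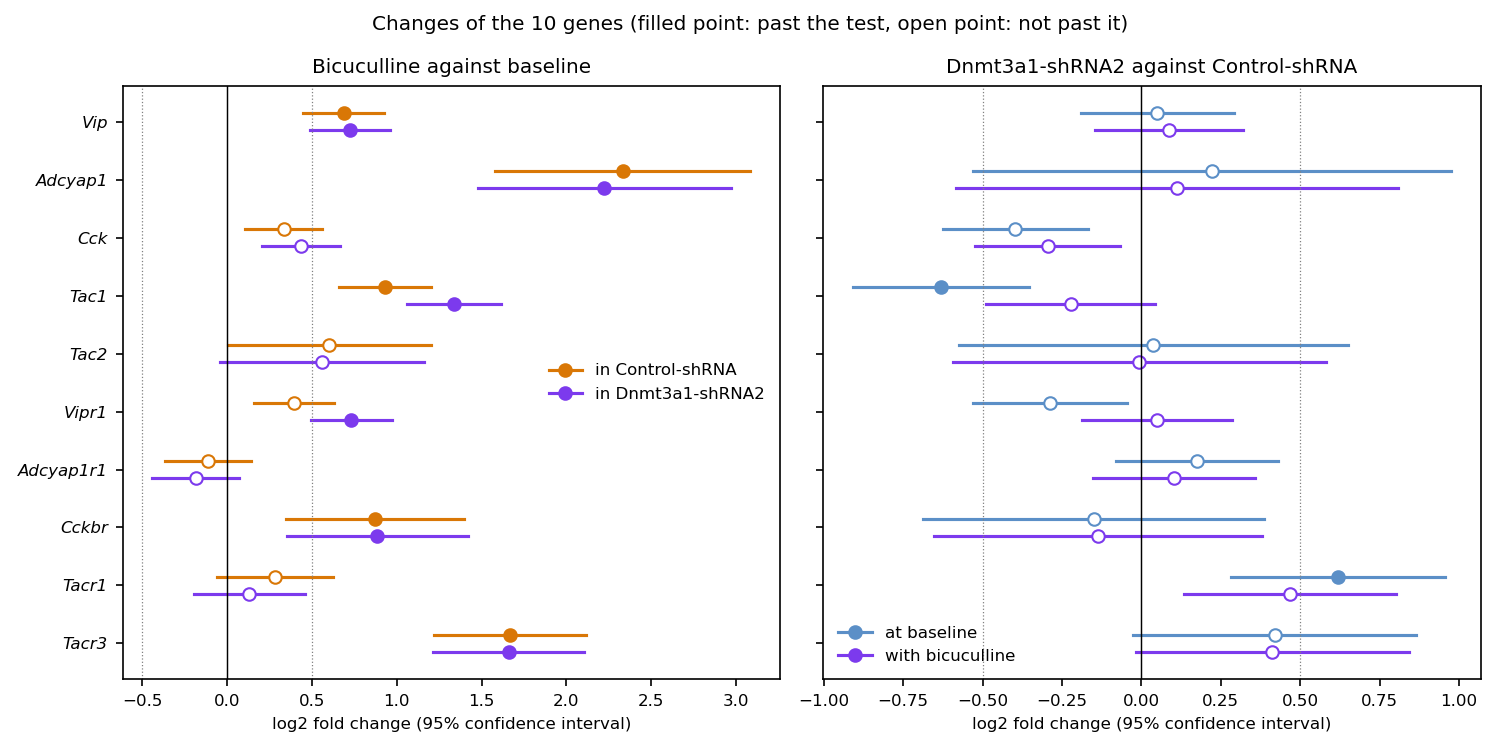
Log2 fold change of each member with its 95% interval in the 4 comparisons. Filled points were called, and dotted lines mark 0.5 in both directions. Adcyap1 and Tacr3 lie farthest to the right in both bicuculline responses, and Tac1 and Tacr1 are the filled points of the knockdown at baseline.

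Markers of GABAergic neurons moved with bicuculline too. The summed CPM of 12 such genes was 2665 to 3089 in Control-shRNA libraries at baseline and 3863 to 4178 with bicuculline, and 2372 to 2611 and 3414 to 3898 in knockdown libraries. Of the 12, 5 rose and none fell in each response, beside 10.8% and 12.6% of all genes that rose, among them the GABA-synthesising enzymes Gad1 (log2 fold change 0.60 and 0.73) and Gad2 (0.65 and 0.82) and the interneuron peptides Sst (0.62 and 0.92) and Npy (0.66 and 0.94). The median over the 12 was 0.40 and 0.39. Of 16 genes taken as markers of Vip- or Cck-expressing interneurons, 15 were tested. In each response 5 of them rose and 1 fell, with a median of 0.26 and 0.29 over the list. Among those that rose was Crh, which encodes corticotropin-releasing hormone. It rose by 1.83 in Control-shRNA cultures, from a low mean of 0.614 CPM to 2.20 CPM. The 1 that fell was Npy2r, a neuropeptide Y receptor (-1.56). Summed excitatory markers were 2559 to 2796 CPM at baseline and 2499 to 2751 CPM with bicuculline under the Control-shRNA. The part of cell composition in the members' changes was not tested.

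The knockdown itself moved fewer members. At baseline Tac1 was lower and Tacr1 higher in Dnmt3a1-shRNA2 than in Control-shRNA cultures, 2 of 10, where 5.83% of all genes were called (1.76% higher, 4.07% lower). The median log2 fold change was 0.04 over the peptides and 0.18 over the receptors, beside 0.01 over all genes. For 4 of the 10 (Tac1, Tacr1, Cck and Tacr3) the groups did not overlap, and 19.9% of all genes did not. With bicuculline none of the 10 was called by edgeR, and none by limma-voom or DESeq2 under the same thresholds. At an unadjusted p under 0.05 in edgeR stood 2 of the 10 with bicuculline, Cck and Tacr1. At baseline it was 4 of the 10, Cck, Tac1, Vipr1 and Tacr1. The share of all genes at that p was not counted, so nothing is drawn from these 2 counts. Of all genes, 5.89% were called with bicuculline (2% higher, 3.9% lower). The groups did not overlap for 1 member, Tacr1, and for 20.9% of all genes.

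The 4 baseline Control-shRNA libraries held 18.8 to 23.4 CPM of Tac1 and the 4 knockdown libraries 11.8 to 14.6 CPM. Tac1 thus fell by 0.63 on the log2 scale (SE 0.13, 95% interval -0.91 to -0.35, adjusted p = 0.00301), to 0.646 of the control level. Within each replicate number the ratio was 0.559 to 0.705. With bicuculline it was -0.22 (adjusted p = 0.244), and the groups overlapped. Cck was lower at baseline by a log2 fold change of -0.40 (adjusted p = 0.018), under the fold threshold, with 78.9 to 107 CPM in control and 65.3 to 75.0 CPM in knockdown libraries, and by -0.30 with bicuculline (adjusted p = 0.0687).

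Tacr1, the receptor for the Tac1 product substance P, went the other way. Against 3.46, 4.23, 4.78 and 3.73 CPM in Control-shRNA libraries, the knockdown libraries held 4.99, 5.89, 7.33 and 6.67 CPM at baseline, so that every one was above the controls (1.54-fold, log2 fold change 0.62, SE 0.16, adjusted p = 0.0125). Scaling by library size alone gave 0.54 (adjusted p = 0.0575). Tested by limma on log2(TPM + 1) it was 0.33 and did not pass (adjusted p = 0.179). With bicuculline the knockdown libraries held 6.26, 6.74, 7.06 and 7.24 CPM, all above the control libraries (3.28 to 5.65 CPM). The log2 fold change of 0.47 was under the fold threshold (SE 0.16), and its adjusted p was 0.0502 in edgeR, 0.0425 by limma-voom and 0.0191 by DESeq2. Without replicate 4 of the stimulated controls it was 0.55 and passed (adjusted p = 0.0474), and without the low replicate 1 it was 0.31 (adjusted p = 0.129).

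Tacr3 showed a shift that was not called. Its knockdown libraries (34.2 to 44.4 CPM) lay above the controls (25.9 to 33.2 CPM) at baseline, with a log2 fold change of 0.42 (SE 0.21, adjusted p = 0.201) and same-number ratios of 1.32 to 1.37. With the replicate number as a block its adjusted p was 0.00838, and the change was still under the fold threshold. With bicuculline it was 0.41 (adjusted p = 0.18), and without replicate 1 of the stimulated controls 0.65, which passed (adjusted p = 0.0232). Without replicate 1 of the stimulated knockdown cultures it was 0.21 (adjusted p = 0.512), and without replicates 2 or 3 of the stimulated controls 0.26 or 0.31. The remaining members gave log2 fold changes between -0.29 and 0.22 at baseline, none of which passed. For Adcyap1 the change was 0.22 with a 95% interval of -0.53 to 0.97, and the same-number ratios were 1.07 to 1.32. The block, which takes up the differences between numbers, lowered its SE from 0.36 to 0.080 and gave an adjusted p of 0.0493, under the fold threshold. The change was for Vip 0.05, for Adcyap1r1 0.18, for Cckbr -0.15, for Vipr1 -0.29 (adjusted p = 0.0327 with the block) and for Tac2 0.04.

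Other inhibitory neuron genes were lower in the knockdown at baseline as well. Of the 12 GABAergic markers, 4 fell and none rose, namely Npy (-1.05), the transcription factor Dlx5 (-0.98), the calcium-binding protein gene Pvalb (-0.55) and Sst (-0.52), with a list median of -0.21. With bicuculline 2 of the 12 fell, Dlx5 and Npy. Of all genes 4.07% were lower at baseline and 3.9% with bicuculline. In the paper's PCR measurements on separate cultures, the effect on Npy was not significant for 1 of its Dnmt3a1 hairpins. None of the 15 tested Vip or Cck interneuron markers was called at baseline, and with bicuculline 1 was, Crh (1.38). The summed CPM of the astrocyte markers was 714 to 924 in control and 730 to 1070 in knockdown libraries at baseline. Of these 9 markers 1 was called, S100b (0.82), with low means of 0.750 CPM in control and 1.33 CPM in knockdown libraries. The list median was 0.41, and 8 of the 9 had a positive log2 fold change. The exception was Slc1a2, which made up the largest part of the sum (means of 440 and 383 CPM) and was named after its values were seen. The sum of fibroblast and vessel markers was 54.1 to 85.9 and 64.5 to 106 CPM, and Pdgfrb, a pericyte marker among them, rose (0.75). The part of these shifts in the changes of Tac1 and Tacr1 was not tested. Every knockdown library carried the same hairpin. For Tac1, Tacr1 and these markers, loss of Dnmt3a1 and other effects of that hairpin therefore cannot be told apart.

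Whether the knockdown altered the bicuculline response was tested directly as an interaction. None of the 10 members passed in edgeR (1 of them, Tac1, had an unadjusted p under 0.05), nor did any of the 17222 genes (0%), with 852 genes at an unadjusted p under 0.05. By limma-voom 0 genes passed and by DESeq2 18, none of them a member. For Tac1 the response was larger under Dnmt3a1-shRNA2 by a log2 difference of 0.41 (95% interval 0.02 to 0.79, unadjusted p = 0.0385, adjusted p = 0.982), and for Vipr1 by 0.34. The difference was -0.11 for Adcyap1, with an interval of -1.13 to 0.91, 0.04 for Vip (-0.30 to 0.37), 0.01 for Cckbr and -0.01 for Tacr3.

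Several members differed between replicate numbers in every group alike. Adcyap1 was highest in number 3, then 2, 4 and 1 in all 4 groups, with a coefficient of variation of 43.3% in baseline controls. Adcyap1r1 and Cckbr were higher in numbers 2 and 3 than in 1 and 4 in all 4 groups, while Tacr3 and Tac2 were highest in number 1, and Tac1 too, except that numbers 1 and 3 were both at 14.6 CPM in the knockdown at baseline. The summed oligodendrocyte lineage markers followed the first pattern. In baseline controls they stood at 122, 187, 176 and 98.7 CPM, and over all libraries at 98.7 to 225 CPM. Of these 9 markers 7 were tested, Olig1 made up most of the sum (53.6 to 160 CPM), and the defining Sox10 and Mag were at 0 to 0.0372 and 0 to 0.148 CPM. The share of mitochondrial counts, 2.73% to 6.60% over the 16 libraries, also went with the number. The labels do not say what a number stands for, and the part of these values in the members' levels was not tested.

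**Figure D4:**
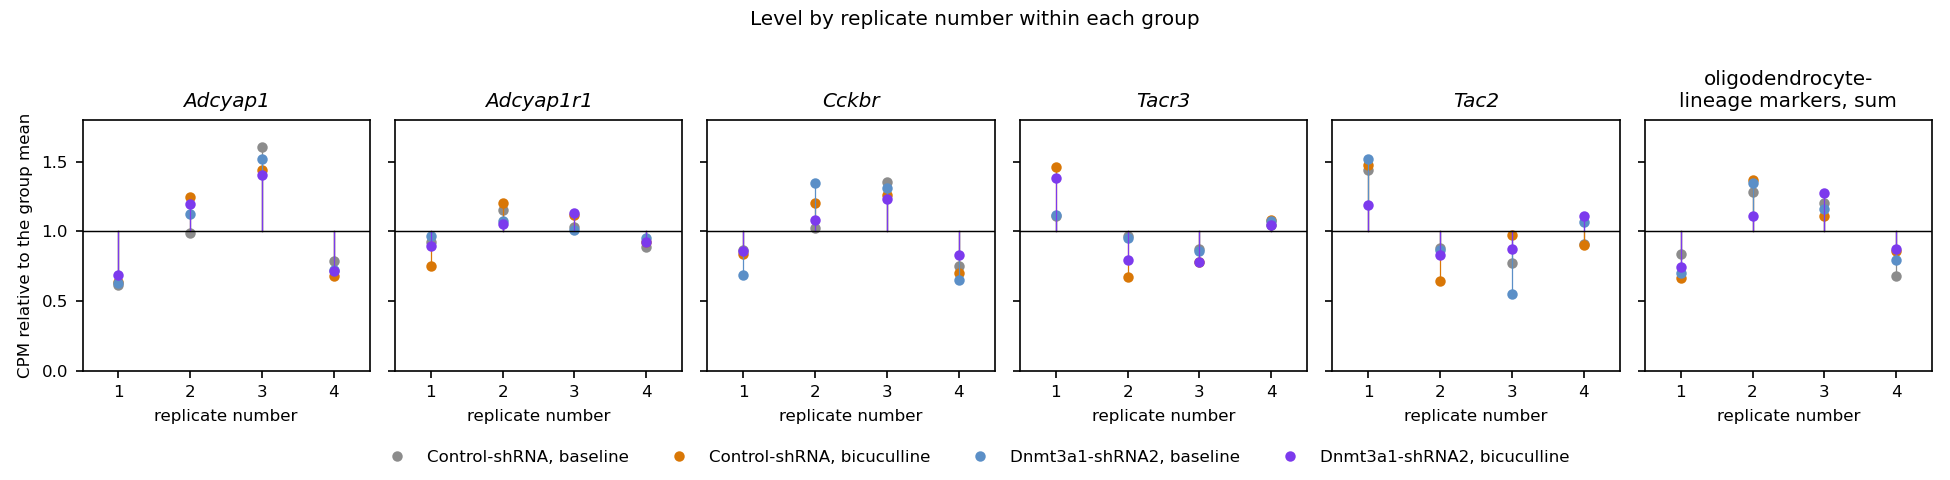
CPM divided by the mean of its group, by replicate number, for 5 members and for the summed oligodendrocyte lineage markers, with 1 point per group. Adcyap1, Adcyap1r1, Cckbr and the marker sum are higher in numbers 2 and 3 than in 1 and 4 in every group. Tacr3 and Tac2 are highest in number 1, while numbers 2 to 4 of Tac2 change order between groups.

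On the TPM scale the bicuculline response of Adcyap1 was smaller, 1.71 in Control-shRNA and 1.66 in knockdown cultures as a log2(TPM + 1) difference. The estimated counts and TPM together imply the mean length of the transcripts counted. It was 1584 to 2345 nucleotides in baseline Control-shRNA libraries and 2312 to 2663 with bicuculline (difference 470, two-sided exact permutation p = 0.0857). Under Dnmt3a1-shRNA2 it was 1838 to 2199 and 2440 to 2643 (difference 454, exact permutation p = 0.0286, the smallest that 70 splits allow, and 0.381 after Benjamini-Hochberg adjustment over 40 tests). The annotation holds Adcyap1 transcripts of 3392, 3117, 2011, 327 and 318 nucleotides, the 2011-nucleotide one with a retained intron. Per length, the ratio of Adcyap1 to its receptor Adcyap1r1 went from 0.255 to 0.996 under the Control-shRNA and from 0.240 to 0.996 under Dnmt3a1-shRNA2. For Tac2 over Tacr3 it went down from 0.544 to 0.268 and from 0.417 to 0.202. Tac1 over Tacr1 was 32.1 in controls and 14.0 in knockdown cultures at baseline, with ranges of 25.9 to 40.7 and 10.7 to 19.0. With bicuculline it was 53.3 and 31.0, and the ranges of 36.4 to 91.4 and 25.0 to 41.8 overlapped. The 91.4 came from replicate 1 of the stimulated controls, where Tacr1 was low (3.28 CPM).

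Some of the enzymes and granule proteins that turn such precursors into released peptides rose as well. Of 17 genes for peptide processing, 5 rose, none fell and 12 did not pass in each bicuculline response, where 10.8% and 12.6% of all genes rose, with medians of 0.26 and 0.26 over the list beside 0.01 and -0.01 over all genes. They included Pcsk1, the prohormone convertase 1 (2.93 in Control-shRNA and 3.48 in knockdown cultures), the granin Scg2 (2.30 and 2.57), the convertase Pcsk6 (1.51 and 1.65) and Pam, which amidates the C-terminus of many neuropeptides (1.37 and 1.60). The summed CPM of the 17 went from 3142 to 3388 up to 5047 to 6128 in Control-shRNA libraries. None of the 17 was called in either knockdown comparison. Of 11 peptide-degrading enzymes none was called under the Control-shRNA, and 2 rose under Dnmt3a1-shRNA2, where 12.6% of all genes rose. These were the aminopeptidase Lnpep (0.54) and Dpp4, a dipeptidyl peptidase that cleaves several peptides of the secretin family (0.78). Dpp4 was scarce, with means of 0.494 CPM at baseline and 0.857 CPM with bicuculline.

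Downstream of the Gs-coupled receptors, 30 genes of the cyclic AMP route were tested. With bicuculline 5 rose and 3 fell under the Control-shRNA and 4 rose and 4 fell under Dnmt3a1-shRNA2, with list medians of 0.08 and 0.04. These 8 of 30 lie near the shares of all genes called, 21.9% and 25.8%. Those that rose included Crem, a cyclic AMP-responsive transcription factor gene (1.83 and 2.28), Prkar2a, a regulatory subunit of protein kinase A (1.56 and 1.55), and Adcy8, a calcium-stimulated adenylyl cyclase (1.32 in both). Creb1 was among those that fell (-0.87 and -0.91; the former named after its value was seen). The knockdown at baseline lowered Crem (-0.62) and the cyclase gene Adcy3 (-0.60) and raised Prkar2b, a further kinase subunit (0.55). With bicuculline 1 of the 30 was higher, again Prkar2b (0.52), and 2 were lower, again Adcy3 (-0.71) and also Adcy7 (-0.88). Adcy7 was low, with means of 3.14 CPM in control and 1.70 CPM in knockdown libraries. Of all genes, 5.83% were called in the knockdown at baseline and 5.89% with bicuculline.

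Of 27 genes on the Gq and phospholipase C route, 26 were tested. Bicuculline raised 4 and lowered 1 under the Control-shRNA, and raised 3 and lowered 1 under Dnmt3a1-shRNA2, with list medians of 0.03 and 0.03. The 5 and 4 of 26 lie near or under the shares of all genes called. Rgs2 and Rgs4 speed the shut-off of Gq and Gi proteins. They rose by 2.21 and 1.99 in Control-shRNA cultures and by 2.44 and 1.76 in knockdown cultures. Itpr3, an inositol trisphosphate receptor, fell by 1.25 in Control-shRNA cultures, from a low mean of 0.743 CPM to 0.308 CPM. The knockdown lowered 2 and raised none in each condition, where 4.07% and 3.9% of all genes were lower. These were Dgkg, a diacylglycerol kinase (-1.32 at baseline and -1.32 with bicuculline), and Rasgrp1, a Ras activator that binds diacylglycerol (-1.01 and -0.74). Another list held 10 genes for kinases and binding partners of receptors, and it was not restricted to receptors coupled to Gq. Of the 10, 1 rose in each response, the receptor kinase Grk5 (1.13 and 1.15), beside 10.8% and 12.6% of all genes. The knockdown lowered 2, the accessory protein genes Ramp3 (-1.08 and -1.18) and Ramp2 (-0.55 and -0.93), at baseline and with bicuculline. Of all genes 4.07% and 3.9% were lower there.

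**Figure D5:**
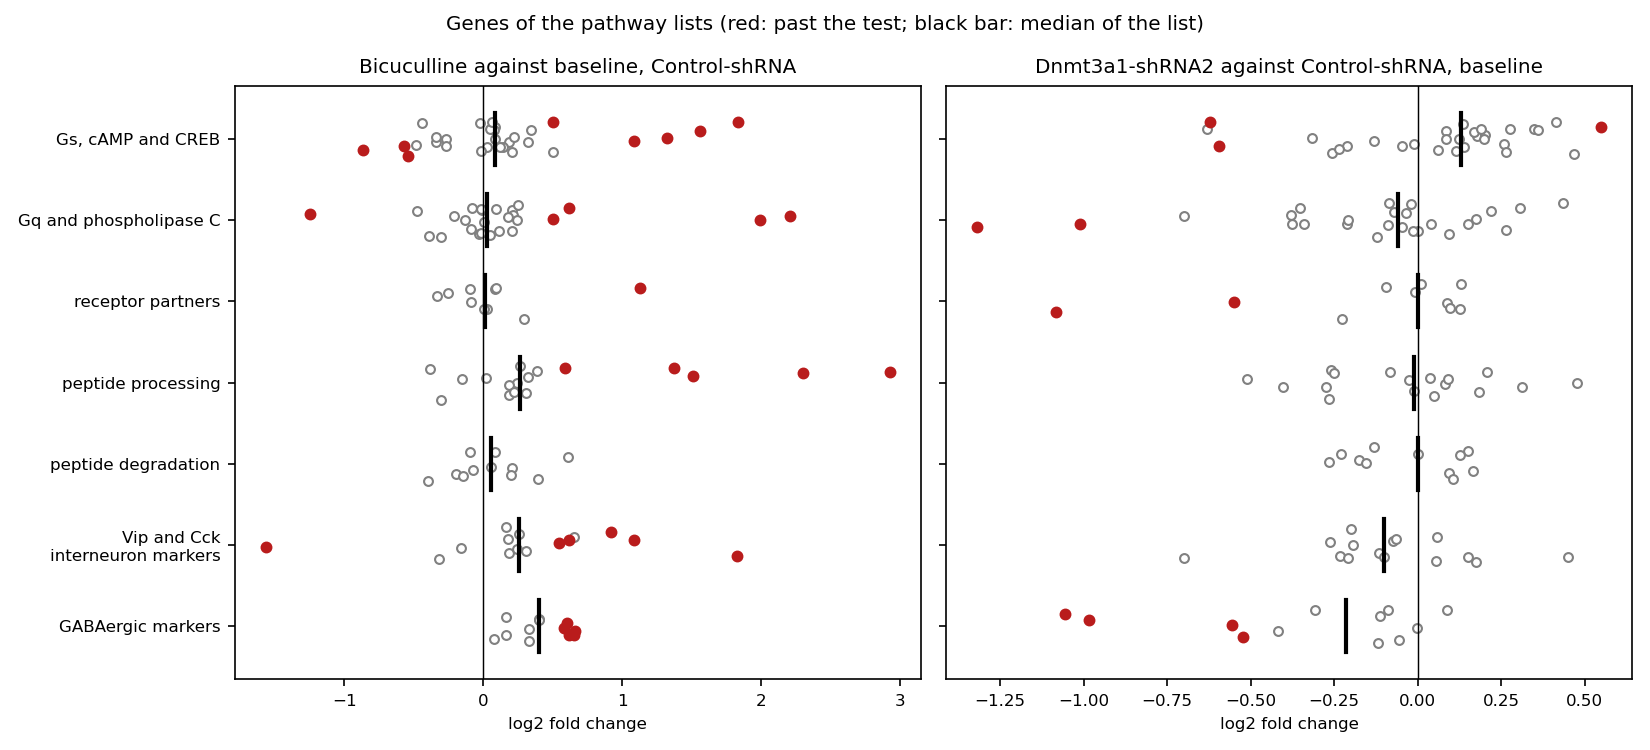
Log2 fold change of every tested gene in 7 lists for the bicuculline response under the Control-shRNA and for the knockdown at baseline. Red points were called and black bars are list medians; the called genes for peptide processing all lie on the higher side with bicuculline, and none was called in the knockdown.

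Most other members of these peptide and receptor families were scarce. Of 14 such genes 5 passed the low-count filter: Vipr2, the VPAC2 receptor shared by VIP and PACAP, and Ghrh, Glp1r, Gipr and Glp2r. Glp2r, the glucagon-like peptide-2 receptor, rose with bicuculline under the Control-shRNA (0.83, adjusted p = 0.0165), and none of the 5 was called in the other 3 comparisons. Gipr, the receptor for glucose-dependent insulinotropic polypeptide, was the most abundant of the 14, with 2981 counts over the 16 libraries and group means of 4.04 to 6.63 TPM, and Vipr2 had 502 counts. The CCK-A receptor gene Cckar had 41 counts, the NK2 receptor gene Tacr2 29, Gast 83 and Tac4 2 in all 16 libraries. Gip had 0 counts in each of the 16.

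The genes whose log2 CPM ran most like a member over the 16 libraries, among 13880 with a mean of at least 1 CPM, are given as a description, since the 16 points share groups and replicate numbers. For Tacr3 they were Spire1 (Pearson's r = 0.993), Rbpj (0.989) and Rybp (0.989). Tac1 ran with Ppp1r2 (0.980), Ptgs2 (0.980), the inducible cyclooxygenase, and Gm3194 (0.979), and Adcyap1 with Tmem178 (0.973), Cdt1 (0.972) and Dio2 (0.972). The nearest gene to Vip was Igf2bp2 (0.959), to Adcyap1r1 Cyb561 (0.959), to Tacr1 2900052N01Rik (0.951), to Cckbr Slc3a2 (0.949), to Vipr1 Copg2 (0.944), to Tac2 Ndufb2 (0.937) and to Cck Dnlz (0.934).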

How the data were processed

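RNA-seq libraries were made from 16 cultures in 4 groups of 4, grouped by the labels. The authors trimmed paired-end reads with Trim Galore (0.6.4 in the submitters' notes) and quantified them with kallisto (0.4.6 there) on GRCm38.p6. They deposited an estimated count table and a TPM table per library. Both were summed per gene. Estimated counts are not whole, and were rounded before testing. Library totals ran from 28912697 to 29586355. The lowest member, Tac2, had as few as 40 counts in a library, so counting error is part of its spread.

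edgeR 4.0.16 (R 4.3.3) was run with TMM scaling, a low-count filter by group and 1 quasi-likelihood fit of the 4 groups. CPM are on TMM-scaled library sizes. Calls needed a Benjamini-Hochberg adjusted p (over 17222 genes) under 0.05 together with a log2 fold change beyond 0.5 in either direction. The interaction needed the adjusted p alone. The fit was tested on simulated data. Alternatives were limma-voom 3.58.1, DESeq2 1.42.0, DESeq2 size factors, library size only, other filters, limma on log2(TPM + 1) and log2(TPM + 0.1), other fold thresholds, the 2 groups alone, the replicate number as a block, and each library left out. The implied transcript length was added after seeing the data. The members and lists were chosen with earlier results of these data known. All 10 members are described. From each further list at most the 4 called genes with the largest change per comparison are named, and for each member at most the 3 most correlated genes. Markers served as lists too.

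Replicate numbers come from the labels. The paper gives 4 independent neuronal preparations per condition, and the labels tie no number to a preparation. Deviations from group means of same-numbered libraries were correlated. For the bicuculline response this gave 0.142 to 0.221 under the Control-shRNA and 0.0631 to 0.337 under Dnmt3a1-shRNA2. For the knockdown it gave 0.204 to 0.355 at baseline and 0.0667 to 0.388 with bicuculline. What a number marks was not tested. The main fit used no pairing, and the block was an alternative for every comparison. No 2 libraries of a group agreed within sampling noise. Gene positions are from GENCODE M21 on GRCm38, and promoters from RefSeq on GRCm38.p6.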

Additional observations from a re-analysis of the deposited data

Results flagged for a closer look

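Over the 40 combinations of 10 members and 4 groups, 1 library stood apart from the other libraries of its group. Tacr1 in replicate 1 of stimulated Control-shRNA cultures was at 3.28 CPM, where the other libraries had 5.33 to 5.65 CPM. The gap was 0.864 of the range of the group, above the 95% critical value of Dixon's test for 4 samples. By chance about 1 in 20 groups passes that value.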

How the results depend on the processing

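The number of members called with bicuculline was 5 under the Control-shRNA and 6 under Dnmt3a1-shRNA2. It was 2 and 3 with an absolute log2 fold change over 1, and 3 and 3 on log2(TPM + 1), and 3 under the Control-shRNA on log2(TPM + 0.1). For the knockdown at baseline the 2 calls went to 0 with a fold change over 1, and to 1 on log2(TPM + 1), on log2(TPM + 0.1) and with library size only. The cause was not tested. Library size only and log2(TPM + 1) moved the median of all genes to -0.153 and -0.141 for the bicuculline response under the Control-shRNA, and to -0.157 and -0.131 under Dnmt3a1-shRNA2. On log2(TPM + 0.1) it moved to -0.187 and -0.177, and to -0.104 for the knockdown at baseline. Leaving out each library in turn gave 5 to 6 and 6 to 7 members for the bicuculline responses, 2 to 2 for the knockdown at baseline, 0 to 1 with bicuculline and 0 to 0 for the interaction. With the replicate block these counts were 6, 7, 2, 0 and 0. In both responses the block brought in Tac2 (adjusted p = 0.0062 and 0.00619), although the labels do not say that numbers pair the libraries. The block changed no other call.

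Log2 values that turned sign passed no test in either fit. Under library size only, log2(TPM + 1) and log2(TPM + 0.1), in that order, Tacr1 with bicuculline under Dnmt3a1-shRNA2 was -0.020, -0.041 and -0.050, Vip for the knockdown at baseline -0.026, -0.047 and -0.049, Tac2 there -0.050, -0.099 and -0.11, and Vipr1 for the knockdown with bicuculline -0.020, -0.085 and -0.10. Vip for the knockdown with bicuculline was -0.030 and -0.031 on the TPM scales. Tac2 was -0.018 by voom for the knockdown at baseline. For the knockdown with bicuculline it was 0.040 by voom, 0.0068 by DESeq2, 0.0071 with DESeq2 size factors and 0.018 with the block. The Tac2 interaction was 0.057 by voom and 0.031 and 0.043 on the TPM scales. The Tacr3 interaction was 0.018 by voom, 0.00145 by DESeq2, 0.00155 with DESeq2 size factors, 0.00149 with library size only, 0.0046 with at least 10 counts in every library, 0.039 and 0.032 on the TPM scales and 0.0075 with the block.

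With 1 library left out, the range crossed 0 for the knockdown at baseline in Adcyap1 (-0.055 to 0.55), Cckbr (-0.32 to 0.033), Tac2 (-0.23 to 0.26) and Vip (-0.043 to 0.14), and for the knockdown with bicuculline in Adcyap1 (-0.10 to 0.34), Adcyap1r1 (-0.015 to 0.20) and Tac2 (-0.17 to 0.23). For the interaction it did in Adcyap1 (-0.44 to 0.17), Adcyap1r1 (-0.19 to 0.028), Cck (-0.0092 to 0.17), Cckbr (-0.17 to 0.19), Tac2 (-0.27 to 0.23), Tacr3 (-0.20 to 0.23) and Vip (-0.054 to 0.13). Of 800 values with a library left out, 748 kept their direction and side of the threshold.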
